A study of Homo sapiens with 9 samples.

Results

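The mitochondrial ribosomal protein genes are the nuclear genes whose symbols begin with MRPL or MRPS followed by a number. They were chosen by symbol alone among protein-coding genes, which gave 78 genes, 49 named MRPL and 29 named MRPS, of 67071 gene identifiers in the table. Their RNA was measured in 22Rv1, an established human prostate carcinoma line labelled as wild type. The tested cells carried a short hairpin RNA against CHD9, either shCHD9_1 or shCHD9_2, and the control cells carried a hairpin against GFP (shGFP). Each of the 3 groups had 3 libraries, no drug or time point is labelled, and the labels do not say whether replicates were separate cultures. Every p-value is therefore set against the spread of these libraries alone, and that spread may be technical. CHD9 is an ATP-dependent chromatin remodeller of the chromodomain helicase family.

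Mitochondria translate the few proteins of the respiratory chain encoded by mitochondrial DNA on their own ribosome. Its rRNAs come from mitochondrial DNA, whereas every one of its proteins is encoded in the nucleus, made in the cytosol and imported. The small subunit binds the mRNA and decodes it, and the large subunit forms the peptide bond and passes the new chain through an exit tunnel towards the inner membrane. Some of the proteins descend from bacterial ribosomal proteins and others are specific to mitochondria. The symbols do not always tell the subunit: the proteins of MRPS30 and MRPS18A sit in the large subunit, and the MRPS36 product is a component of the 2-oxoglutarate dehydrogenase complex rather than of the ribosome. By these assignments the 78 genes comprised 51 of the large subunit, 26 of the small subunit and MRPS36.

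Total counts lay between 18911142 and 31968602 per library. CHD9 itself had 14.8, 16.7 and 14.9 CPM (counts scaled to library size) with shCHD9_1 and 18.3, 18.8 and 19.3 CPM with shCHD9_2, against 22.8, 20.5 and 23.2 CPM in shGFP. The knockdown was therefore partial, with every CHD9 hairpin library below every shGFP library. All 9 listed markers of luminal prostate cells were detected, and their summed level was 2100 to 2120 CPM with shCHD9_1, 2020 to 2050 CPM with shCHD9_2 and 1820 to 1840 CPM in shGFP. Of 7 markers of immune, endothelial and fibroblast cells, COL1A1 alone exceeded 1 CPM in any library, and the summed level of all 7 was 7.03 to 7.71 CPM, 6.87 to 7.87 CPM and 5.01 to 5.31 CPM in the same order of groups. CD3E and CDH5 were at 0 in all 9 libraries. The part of these shifts in the results below was not tested.

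Summed over all 78 genes, mitochondrial ribosomal protein mRNA was nearly the same in the 3 groups. The sum was 5999, 5948 and 5944 CPM with shCHD9_1, 6166, 5994 and 5936 CPM with shCHD9_2, and 5967, 5973 and 5984 CPM in shGFP. As a share of all counts, it was 0.585% to 0.589%, 0.603% to 0.619% and 0.600% to 0.601% in those groups. The shGFP sums lay inside the range of the knockdown libraries, and in bulk samples fewer cells and less of an mRNA per cell cannot be told apart. In CPM, the sum of the small subunit genes stood apart, with 2113, 2101 and 2115 CPM with shCHD9_1 and 2192, 2121 and 2136 CPM with shCHD9_2, against 2042, 2072 and 2061 CPM in shGFP. Every knockdown library was above every shGFP library in that sum, by group means of 2110 ± 7.57, 2150 ± 37.4 and 2058 ± 15.2 CPM (SD, n = 3 each). As a share of all counts, without TMM scaling, it was 0.207% to 0.208%, 0.215% to 0.22% and 0.205% to 0.208% in those groups. On that scale the shCHD9_1 and shGFP libraries overlapped, and only the shCHD9_2 libraries lay above shGFP. The large subunit sum averaged 3841 ± 29.1 and 3866 ± 87.4 CPM with the CHD9 hairpins and 3898 ± 12.5 CPM in shGFP (SD, n = 3 each), with the shCHD9_2 libraries spread on both sides of shGFP.

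Levels between genes were compared per kilobase of exon. In shGFP the order was led by MRPS34 at 195 ± 5.52 CPM per kilobase, MRPL24 at 172 ± 2.37, MRPL51 at 137 ± 2.13, MRPS26 at 123 ± 5.10 and MRPL41 at 93.8 ± 2.80 (SD, n = 3 each). Neighbours among these genes were separated by more than their SDs. The next gene, MRPS21, was at 91.4 ± 3.13 and was not separated from MRPL41 in that way. At the low end of the genes tested were MRPL2 at 0.374 ± 0.0353, MRPL46 at 0.616 ± 0.0816 and MRPL38 at 1.23 ± 0.130 CPM per kilobase. With so few reads, the fold changes of these 3 genes had SEs of 0.27, 0.13 and 0.13 on the log2 scale, against a median SE of 0.04 over the genes tested. Other genes of the same strand overlap 37.5% of the exonic bases of MRPL38 and 11.3% of those of MRPL46. KLC4 overlaps 14.7% of those of MRPL2 on the opposite strand. The part of read counting at these overlaps in the low levels was not tested.

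Before testing, genes with too few reads were set aside, and 72 of the 78 remained. MRPL53, a protein of the stalk base of the large subunit, MRPS18B of the small subunit and MRPL23, whose protein lies at the exit tunnel, were listed at 0 in all 9 libraries. MRPL45, whose protein binds the ribosome to the inner membrane, had 0 to 9 counts, MRPS12, which encodes a protein of the decoding centre, had 0 to 1, and MRPS24 had 1 to 12. By counting error alone, a count of 0 allows at most 0.0924 to 0.158 CPM, depending on the library (3 counts). Components of a ribosome that cells need were thus listed at 0, and no statement is made on their expression. Of the exonic bases of MRPL53, 45.2% are shared with CCDC142 on the same strand, and of those of MRPS24, 23.2% with the readthrough gene URGCP-MRPS24. For MRPS12, 16.3% of exonic bases overlap SARS2 on the opposite strand, and for MRPS18B and MRPL45 the annotation has no exonic overlap.

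With CHD9 knocked down, mitochondrial ribosomal protein genes changed by small amounts and in both directions. In the mean of both hairpins against shGFP, 11 of the 72 tested genes were higher and 12 were lower at an adjusted p under 0.05 (quasi-likelihood test of edgeR, with p adjusted by Benjamini-Hochberg over the 16855 genes tested). Over all genes, 22.3% were called higher and 23.2% lower. Called either way were 31.9% of the mitochondrial ribosomal protein genes and 45.5% of all genes. This order turned round when GC content and exonic length were corrected for: 40 of the 72 genes (55.6%) were then called, against 44.3% of all genes. None of the 72 was both called and past 1.5-fold, as 8.10% of all genes were. The log2 fold changes ran between -0.29 for MRPS36 and 0.32 for MRPS17, which are ratios of 0.818 and 1.25. Their median was 0.00, as it was for all genes, but the median size regardless of sign was 0.06, against 0.17 over all genes. The median SE was 0.04, against 0.07 over all genes.

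The hairpins gave similar counts one by one. With shCHD9_1, 13 genes were higher (23.9% of all genes were) and 10 lower (23.4%). With shCHD9_2, 13 were higher (17.2%) and 9 lower (18.5%). Among the 72 genes, 8, or 11.1%, were higher in the mean and with each hairpin separately (13.2% of all genes were), and 4 genes, 5.56%, were lower in all 3 comparisons (13.6%). The comparisons share the shGFP libraries, so the same direction with each hairpin is not independent evidence.

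**Figure D1:**
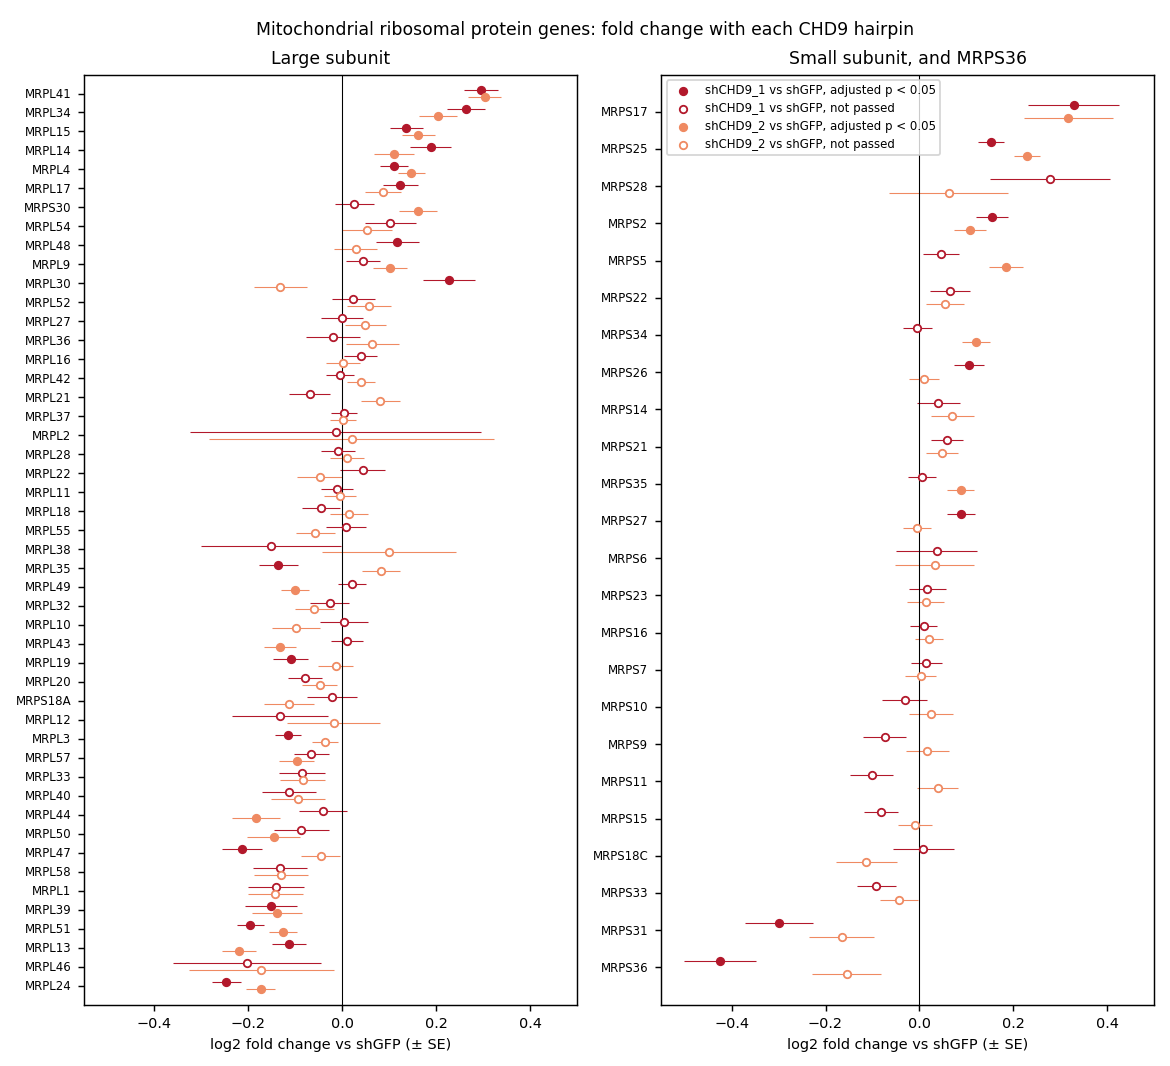
log2 fold change of each of the 72 tested genes against shGFP with shCHD9_1 (dark red) and shCHD9_2 (orange), in order of their mean, with bars for the SE of the fit. Filled points had an adjusted p under 0.05; all values lie between -0.43 and 0.33, with MRPL24 lowest and MRPL41 highest in the large subunit and MRPS17 highest in the small subunit.

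In the plot of all tested genes, small subunit genes lay more often above 0 than large subunit genes. Of 23 tested small subunit genes, 4 were higher (MRPS17, MRPS25, MRPS2 and MRPS5) and 1, MRPS31, was lower, with a median log2 fold change of 0.04 and 16 values above 0. Of 48 tested large subunit genes, 7 were higher and 10 lower, with a median of -0.02 and 28 values below 0. Over all genes tested, 22.3% were called higher and 23.2% lower, with a median of 0.00. Whether the subunits differ was not tested, since genes are not replicates. Among large subunit genes, those with bacterial homologues gave 5 higher and 5 lower of 29, and those specific to mitochondria 2 higher and 5 lower of 19.

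MRPS17 had the highest fold change of the 72 genes. It encodes the homologue of bacterial S17, a protein that binds the rRNA of the small subunit. MRPS17 (ENSG00000239789.6, chromosome 7, 55951819 to 55956501, plus strand, GRCh38) had 11.9, 11.5 and 11.5 CPM with shCHD9_1 and 12.8, 11.7 and 9.94 CPM with shCHD9_2, against 9.25, 8.95 and 9.51 CPM in shGFP. All 6 knockdown libraries were above all 3 shGFP libraries, with 1 shCHD9_2 library close to them. MRPS17 rose by a log2 fold change of 0.32 in the mean of both hairpins (SE 0.08, edgeR adjusted p = 0.0013), and by 0.33 and 0.32 with shCHD9_1 and shCHD9_2 (adjusted p = 0.0041 and 0.0068 by the same edgeR test). The shCHD9_2 call was lost without shCHD9_2 replicate 1 (log2 fold change 0.24, edgeR adjusted p = 0.061). It was among the less abundant genes, with 176 to 379 counts per library, and 27.0% of its exonic bases overlap other genes of the same strand, one of them NIPSNAP2, whose own log2 fold change was -0.02 (edgeR adjusted p = 0.68).

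MRPS25, which encodes a mitochondria-specific protein of the small subunit, was measured more precisely. It had 197, 197 and 194 CPM with shCHD9_1 and 206, 205 and 208 CPM with shCHD9_2, against 176, 180 and 173 CPM in shGFP. The 3 groups did not overlap at all. MRPS25 (ENSG00000131368.8, chromosome 3, 15042460 to 15065335, minus strand) rose by 0.19 (SE 0.02, edgeR adjusted p = 1.1e-08), and more with shCHD9_2 than with shCHD9_1 (0.23 and 0.15, difference -0.08, edgeR adjusted p = 0.028). On the opposite strand, NR2C2 overlaps 22.2% of its exonic bases, and NR2C2 itself rose by 0.21 (edgeR adjusted p = 3.3e-06).

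The other small subunit gene called with each hairpin was MRPS2, the homologue of bacterial S2. MRPS2 (ENSG00000122140.11, chromosome 9, 135499984 to 135504673, plus strand) had 114, 111 and 115 CPM with shCHD9_1 and 113, 108 and 108 CPM with shCHD9_2, against 104, 102 and 99.9 CPM in shGFP. Every knockdown library was above every shGFP library. MRPS2 rose by 0.13 (SE 0.03, edgeR adjusted p = 0.00025). It is rich in GC, at 61.4%, and after correction for GC and exonic length its log2 fold change was 0.00 (edgeR adjusted p = 0.99).

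MRPS5, whose bacterial homologue S5 helps to keep decoding accurate, was higher with shCHD9_2 alone at the threshold. It averaged 84.5 ± 3.64 CPM with shCHD9_1 and 93.0 ± 1.80 CPM with shCHD9_2, against 82.0 ± 2.04 CPM in shGFP (SD, n = 3 each), and the difference between the hairpins itself was -0.14 on the log2 scale. MRPS31, a mitochondria-specific protein gene, was the small subunit gene called lower. It had 16.6, 15.9 and 16.0 CPM with shCHD9_1 and 16.6, 17.8 and 18.8 CPM with shCHD9_2, against 19.8, 19.4 and 20.4 CPM in shGFP. No knockdown library reached the shGFP range, and MRPS31 fell by 0.23 (SE 0.06, edgeR adjusted p = 0.0017). With shCHD9_2 alone it did not pass (-0.17, edgeR adjusted p = 0.061), and after GC and length correction the mean was -0.06 (edgeR adjusted p = 0.43). The most abundant small subunit gene per length, MRPS34, had 220, 204 and 214 CPM with shCHD9_1 and 237, 224 and 236 CPM with shCHD9_2, against 212, 220 and 209 CPM in shGFP, with a log2 fold change of 0.06 (SE 0.03, edgeR adjusted p = 0.071). The shCHD9_1 and shGFP libraries overlapped, whereas the shCHD9_2 libraries lay above both. At 64.5% GC, MRPS34 was called lower after GC and length correction, at -0.11 in the mean (edgeR adjusted p = 0.0001) and -0.20 with shCHD9_1 (edgeR adjusted p = 7.6e-08).

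In the large subunit the steepest rise was that of MRPL41, a mitochondria-specific protein that has also been described as a partner of BCL2. MRPL41 (ENSG00000182154.8, chromosome 9, 137551199 to 137552555, plus strand) had 149, 147 and 141 CPM with shCHD9_1 and 156, 142 and 140 CPM with shCHD9_2, against 114, 120 and 121 CPM in shGFP. The knockdown libraries were all well above the controls. MRPL41 rose by 0.30 (SE 0.03, edgeR adjusted p = 6.4e-11), equally with each hairpin. It has the highest GC content of the 72 genes, 71.9%, and after GC and length correction its log2 fold change was 0.07 (edgeR adjusted p = 0.044) in the mean and 0.03 with shCHD9_1 (edgeR adjusted p = 0.43).

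MRPL34, the homologue of the very small bacterial protein L34, rose under every alternative tried. MRPL34 (ENSG00000130312.6, chromosome 19, 17292609 to 17306843, plus strand) had 71.8, 68.3 and 69.5 CPM with shCHD9_1 and 65.6, 69.3 and 65.9 CPM with shCHD9_2, against 57.6, 58.1 and 58.8 CPM in shGFP. No library of either hairpin overlapped the controls. The log2 fold change was 0.23 (SE 0.04, edgeR adjusted p = 4.5e-07) and stayed between 0.19 and 0.24 over the 17 alternatives. Of its exonic bases, 13.2% lie opposite ABHD8, which had a log2 fold change of -0.02 (edgeR adjusted p = 0.84).

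MRPL15, whose bacterial homologue L15 joins late in assembly, was higher with each hairpin as well. MRPL15 (ENSG00000137547.9) had 104, 100 and 102 CPM with shCHD9_1 and 107, 104 and 101 CPM with shCHD9_2, against 95.0, 91.3 and 92.8 CPM in shGFP. All 6 knockdown libraries were above the shGFP libraries, while the hairpins overlapped each other, and it rose by 0.15 (SE 0.03, edgeR adjusted p = 6.6e-05). MRPL14, a protein of the face that meets the small subunit and the docking site of the assembly factor MALSU1, had 61.7, 60.5 and 60.9 CPM with shCHD9_1 and 59.9, 57.7 and 55.7 CPM with shCHD9_2, against 52.9, 55.4 and 52.5 CPM in shGFP. The lowest shCHD9_2 library was just above the highest shGFP library. MRPL14 (ENSG00000180992.7, chromosome 6, 44113454 to 44127457, minus strand) rose by 0.15 in the mean (SE 0.04, edgeR adjusted p = 0.00097; 0.09 after GC and length correction). Its rise with shCHD9_2, 0.11 (edgeR adjusted p = 0.040), was lost in 8 of 17 alternatives, among them each fit without shGFP replicate 1, shGFP replicate 3, shCHD9_2 replicate 1 or shCHD9_2 replicate 2 (edgeR adjusted p = 0.11, 0.15, 0.14 and 0.077).

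MRPL4 is the homologue of bacterial L4, a protein with a loop that reaches the exit tunnel. MRPL4 (ENSG00000105364.14, chromosome 19, 10251901 to 10260045, plus strand) had 176, 174 and 171 CPM with shCHD9_1 and 180, 177 and 177 CPM with shCHD9_2, against 161, 157 and 163 CPM in shGFP. The groups did not overlap, and the log2 fold change was 0.13 (SE 0.03, edgeR adjusted p = 4.3e-05). MRPL4 has 64.9% GC, and its corrected log2 fold change was -0.06 (edgeR adjusted p = 0.049), of the opposite sign. MRPL17 and MRPS30 completed the large subunit genes called higher, with log2 fold changes of 0.10 (edgeR adjusted p = 0.0079) and 0.09 (edgeR adjusted p = 0.031; MRPS30 was at 0.24 after correction). MRPL17 did not pass with shCHD9_2 (0.09, edgeR adjusted p = 0.07), nor MRPS30 with shCHD9_1 (0.03, edgeR adjusted p = 0.65). The mean call of MRPS30 was lost when any single shGFP library was left out.

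**Figure D2:**
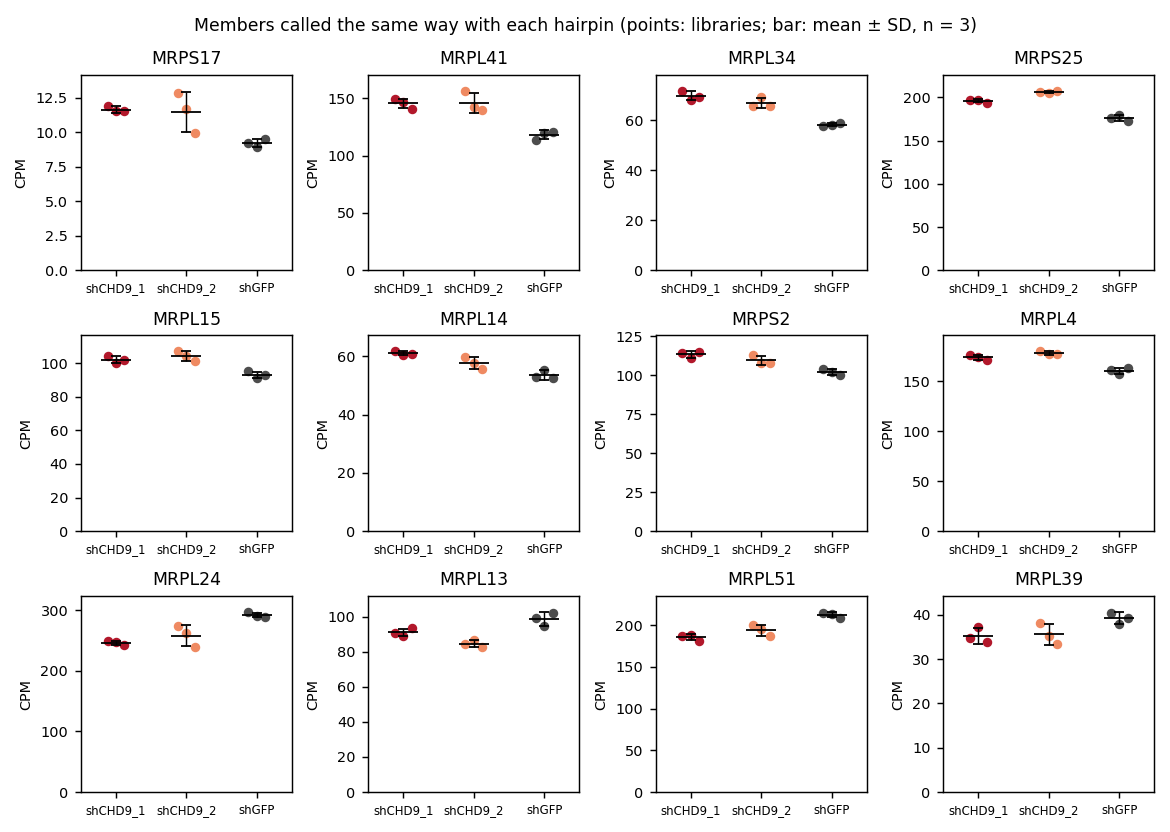
CPM of each library, from 0, for the 8 genes higher and the 4 genes lower in the mean and with each hairpin; points are libraries, and the bar is the mean ± SD (n = 3). The knockdown libraries lie above the shGFP libraries in the first 8 panels and below them in MRPL24, MRPL13 and MRPL51, while in MRPL39 they overlap.

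Among the genes that fell, MRPL24 was the largest contributor of reads of the whole family. It is the homologue of bacterial L24, which starts assembly and lies beside the exit of the tunnel. MRPL24 (ENSG00000143314.12, chromosome 1, 156737303 to 156741590, minus strand) had 249, 247 and 242 CPM with shCHD9_1 and 273, 262 and 239 CPM with shCHD9_2, against 296, 290 and 289 CPM in shGFP. All 6 knockdown libraries were below the controls, the shCHD9_2 libraries being the more spread. MRPL24 fell by 0.21 (SE 0.03, edgeR adjusted p = 1e-08), and by 0.25 after GC and length correction.

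MRPL51, a mitochondria-specific protein gene and the third in level per kilobase, had 187, 188 and 181 CPM with shCHD9_1 and 200, 195 and 187 CPM with shCHD9_2, against 215, 213 and 209 CPM in shGFP. All 6 knockdown libraries were below the shGFP libraries, while the hairpins overlapped each other. MRPL51 (ENSG00000111639.8, chromosome 12, 6491886 to 6493841, minus strand) fell by 0.16 (SE 0.03, edgeR adjusted p = 7.1e-07) and by 0.15 to 0.17 over the alternatives. NCAPD2 overlaps 31.3% of its exonic bases on the opposite strand and had a log2 fold change of 0.00 (edgeR adjusted p = 0.93).

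MRPL13, whose bacterial homologue L13 is among the first proteins to assemble, had 90.4, 89.0 and 93.4 CPM with shCHD9_1 and 84.6, 86.4 and 82.6 CPM with shCHD9_2, against 99.1, 94.5 and 102 CPM in shGFP. The groups did not overlap, although the highest shCHD9_1 library came close to the lowest control. MRPL13 (ENSG00000172172.8) fell by 0.17 (SE 0.03, edgeR adjusted p = 2.2e-05). With 33.5% GC, the lowest of the 72 genes, it moved by -0.01 after GC and length correction (edgeR adjusted p = 0.75), and turned to 0.12 with shCHD9_1. The shCHD9_1 call was also lost without shGFP replicate 3 (edgeR adjusted p = 0.084) or shCHD9_1 replicate 2 (edgeR adjusted p = 0.056).

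MRPL39, a mitochondria-specific protein related to threonyl-tRNA synthetase, had 34.9, 37.3 and 33.8 CPM with shCHD9_1 and 38.1, 35.2 and 33.5 CPM with shCHD9_2, against 40.5, 37.9 and 39.4 CPM in shGFP. One shCHD9_2 library lay inside the control range. MRPL39 (ENSG00000154719.14, chromosome 21, 25585656 to 25607517, minus strand) fell by 0.15 (SE 0.05, edgeR adjusted p = 0.010), and this call was lost in 4 of 17 alternatives, including the fit without shGFP replicate 1 (log2 fold change -0.12, edgeR adjusted p = 0.065). Hairpin by hairpin it was less stable: the shCHD9_2 call was lost in 10 of 17 alternatives, and the shCHD9_1 call was lost in 4 and turned in 2. MRPL3, the homologue of bacterial L3 near the peptidyl transferase centre, had 217, 224 and 228 CPM with shCHD9_1 and 239, 235 and 233 CPM with shCHD9_2, against 247, 241 and 237 CPM in shGFP. Its fall of 0.08 (SE 0.02, edgeR adjusted p = 0.0074) was lost without shGFP replicate 1 (edgeR adjusted p = 0.088) and turned to 0.04 after GC and length correction (edgeR adjusted p = 0.14).

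The remaining genes called lower were MRPS36, MRPL1, MRPL58, MRPL47, MRPL44 and MRPL57. MRPL58 encodes a peptidyl-tRNA hydrolase built into the central protuberance of the large subunit, and averaged 33.2 ± 1.86 and 33.0 ± 2.58 CPM with the CHD9 hairpins, against 36.4 ± 1.12 CPM in shGFP (SD, n = 3 each). MRPL44 contains a fold related to RNase III and averaged 43.5 ± 0.138 CPM with shCHD9_1 and 39.5 ± 2.57 CPM with shCHD9_2, against 44.8 ± 1.52 CPM in shGFP (SD, n = 3 each). Log2 fold changes of these 2 genes were -0.13 and -0.11 (edgeR adjusted p = 0.029 and 0.033). MRPL58 did not pass with shCHD9_1 or shCHD9_2 alone (-0.13 with each, edgeR adjusted p = 0.058 and 0.073). Its mean call was lost in several alternatives, among them the DESeq2 Wald test and the fits without shGFP replicate 1 or 2. MRPL44 did not pass with shCHD9_1 (-0.04, edgeR adjusted p = 0.55) and lost its call after GC and length correction (-0.05, edgeR adjusted p = 0.38). MRPL1 and MRPL57 also lost theirs, at 0.03 and -0.07 (edgeR adjusted p = 0.59 and 0.052).

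By position in the large subunit, the changes were mixed. Over all genes tested, 22.3% were called higher and 23.2% lower. Of the 4 tested genes of the stalk that recruits translation factors (MRPL10, MRPL11, MRPL12 and MRPL54), 0 were called, with log2 fold changes of -0.08 to 0.08. MRPL12 was called lower after GC and length correction, at -0.25 (edgeR adjusted p = 0.017). Of 8 tested genes of the central protuberance, MRPS30 rose and MRPL58 fell. In that position, 3 genes were higher and 2 lower after correction (20.5% and 23.8% of all genes). Of 4 tested genes listed at the exit tunnel, MRPL17 rose and both MRPL24 and MRPL47 fell, while MRPL22 was at 0.00. After GC and length correction MRPL47 was at 0.05 (edgeR adjusted p = 0.25) and MRPL22 at 0.13 (edgeR adjusted p = 0.0074). MRPL4, whose loop reaches the tunnel, was not on this list.

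The direct comparison of the hairpins called 19 of the 72 genes. With shCHD9_1 relative to shCHD9_2, 7 genes were higher (15.6% of all genes were) and 12 lower (13.6%). The count of 19 fell to 12 without shCHD9_1 replicate 1 and to 12 without shCHD9_2 replicate 2. MRPL30, the homologue of bacterial L30, differed most. It had 48.6, 43.2 and 44.8 CPM with shCHD9_1, 35.6, 34.3 and 36.6 CPM with shCHD9_2, and 38.5, 35.6 and 42.0 CPM in shGFP. The libraries of the hairpins were wholly apart, with the shGFP libraries between them and overlapping shCHD9_2. MRPL30 (ENSG00000185414.20, chromosome 2, 99181079 to 99197626, plus strand) was higher with shCHD9_1 than with shCHD9_2 by 0.36 (SE 0.06, edgeR adjusted p = 1.3e-06), and it rose against shGFP with shCHD9_1 (0.23, edgeR adjusted p = 0.00063), while shCHD9_2 gave -0.13 (edgeR adjusted p = 0.063). Without shGFP replicate 2, that last value was -0.19 (edgeR adjusted p = 0.011). Of its exonic bases, 19.5% are shared with 2 other annotated genes of the same strand, AC079447.1 and AC092587.1, so reads of these cannot be told apart from its own.

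MRPS36, the gene of the 2-oxoglutarate dehydrogenase complex, had 14.1, 12.7 and 13.1 CPM with shCHD9_1, 16.4, 16.0 and 15.7 CPM with shCHD9_2, and 18.1, 17.3 and 18.1 CPM in shGFP. The 3 groups were separate, with shCHD9_1 lowest. MRPS36 (ENSG00000134056.12, chromosome 5, 69217760 to 69230129, plus strand) was lower with shCHD9_1 than with shCHD9_2 by -0.27 (SE 0.08, edgeR adjusted p = 0.0056). It fell by 0.29 in the mean of both hairpins (edgeR adjusted p = 0.00025). At 35.0% GC, these values became -0.07 and -0.11 after GC and length correction (edgeR adjusted p = 0.58 and 0.18).

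MRPL35, the homologue of bacterial L35, lay on opposite sides of shGFP with the 2 hairpins. It had 61.7, 58.9 and 58.6 CPM with shCHD9_1, 68.3, 70.6 and 68.9 CPM with shCHD9_2, and 63.7, 66.2 and 66.4 CPM in shGFP. Every shCHD9_1 library was below and every shCHD9_2 library above the shGFP range. MRPL35 (ENSG00000132313.15, chromosome 2, 86199355 to 86213794, plus strand) differed between the hairpins by -0.22 (SE 0.04, edgeR adjusted p = 3.1e-05), with -0.14 against shGFP for shCHD9_1 (edgeR adjusted p = 0.0053) and 0.08 for shCHD9_2 (edgeR adjusted p = 0.11). The difference between the hairpins was -0.12 after GC and length correction (edgeR adjusted p = 0.019), but both hairpins were then above shGFP, at 0.07 with shCHD9_1 (edgeR adjusted p = 0.18) and 0.18 with shCHD9_2 (edgeR adjusted p = 0.00012). MRPL47, related to bacterial L29 at the exit tunnel, had 57.4, 62.0 and 57.0 CPM with shCHD9_1, 68.3, 65.4 and 64.2 CPM with shCHD9_2, and 65.5, 70.1 and 68.4 CPM in shGFP. Its shCHD9_2 and shGFP libraries overlapped and those of shCHD9_1 lay below both. MRPL47 (ENSG00000136522.14, chromosome 3, 179588285 to 179604654, minus strand) differed by -0.17 (SE 0.04, edgeR adjusted p = 0.0020), and by 0.01 after the correction (edgeR adjusted p = 0.88).

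**Figure D3:**
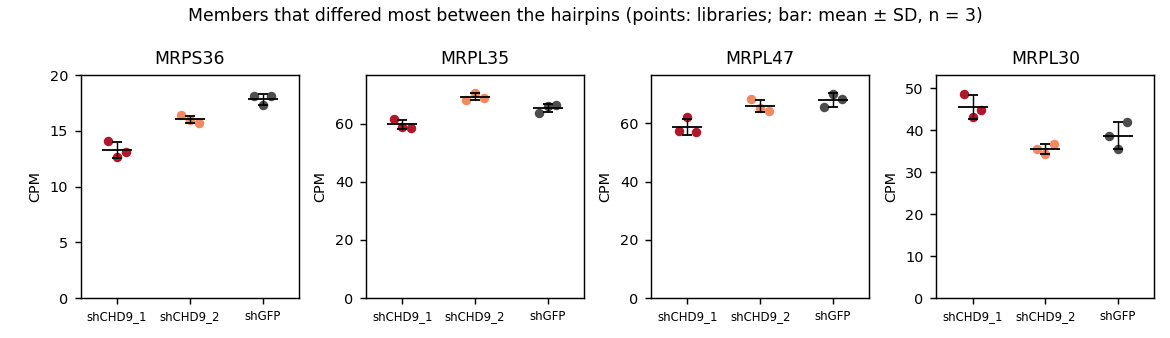
CPM of each library, from 0, for the 4 genes with the largest called difference between the hairpins; points are libraries, and the bar is the mean ± SD (n = 3). MRPS36, MRPL35 and MRPL47 were lowest with shCHD9_1, and MRPL30 was highest with shCHD9_1.

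GC content moved with the fold changes. The longest transcripts of the 72 genes have 33.5% to 71.9% GC. Over these genes, the log2 fold change of both hairpins had a Pearson r of 0.32 with GC (Spearman rho 0.28, n = 72 genes measured in the same libraries). Genes under 45% GC had a median of -0.04 (30 genes; -0.10 over all tested genes of that class), and genes over 55% GC a median of 0.01 (18 genes; 0.10 over all tested genes of that class). The dependence was thus weaker in the mitochondrial ribosomal protein genes than in all genes. A correction for GC and exonic length together, estimated on all genes, turned it round, to an r of -0.57 (rho -0.58). The median exonic length was 2544 bases in these genes and 4411 over all genes tested. The separate parts of GC and length were not tested.

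After the correction, 25 of the 72 genes were higher (20.5% of all genes were) and 15 lower (23.8%), in place of 11 and 12. Of the 23 genes called without it, 12 kept their direction and call, 10 lost the call, and MRPL4 turned; 27 genes were called with the correction alone. With shCHD9_1 the split became 24 higher (21.9% of all genes) and 15 lower (22.9%), in place of 13 and 10. Between the hairpins it became 13 higher (15.0% of all genes) and 9 lower (11.5%), in place of 7 and 12. The small subunit median was 0.07 after correction, with 10 higher and 2 lower. Of the 12 genes called alike with each hairpin, the mean of both hairpins kept its call under all 17 alternatives, the correction included, for 8: MRPS17, MRPS25, MRPL41, MRPL34, MRPL15 and MRPL14, all higher, and MRPL24 and MRPL51, both lower. For 5 of these, MRPL15, MRPL24, MRPL34, MRPL51 and MRPS25, the comparison with each hairpin kept its call as well.

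**Figure D4:**
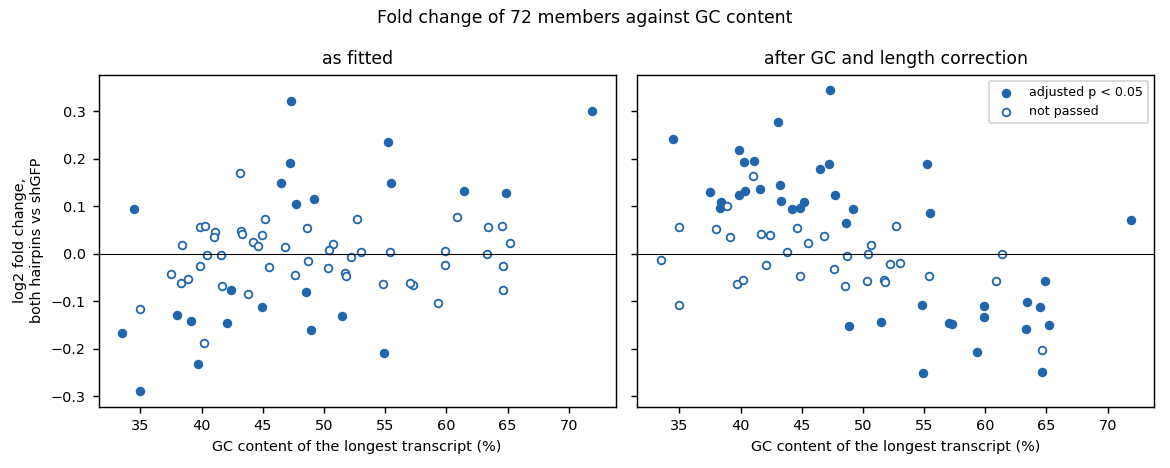
log2 fold change of both hairpins against shGFP for the 72 genes (vertical axis) by GC content of the longest transcript in percent (horizontal axis), as fitted (left) and after GC and length correction (right); filled points had an adjusted p under 0.05. The slope is upward on the left (r = 0.32) and downward on the right (r = -0.57).

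Many nuclear genes for mitochondrial proteins carry sites for NRF1 and for ETS factors such as GABP close to their start. RefSeq promoters on GRCh38.p14, 250 bases before to 50 after the gene start, were available for 69 of the 78 genes. Motifs were searched only in the 250 bases before this RefSeq start. It can differ from the GENCODE start behind the gene coordinates above. The matches shown for MRPL51 and MRPL14 thus lie inside those coordinates. The ETS core CCGGAAG, on either strand, was present there in 33.3% of the 69 genes, against 15.3% of protein-coding tested genes and 8.82% of all promoters. The NRF1 motif GCGCANGCG was present in 18.8%, against 12.7% and 7.02%. The YY1 motif AANATGGCG was found in 4.35%, against 2.20% and 1.40%, the E-box CACGTG in 8.70%, against 8.84% and 6.49%, and the SP1 core GGGCGG in 55.1%, against 67.5% and 42.3%. The motifs searched do not contain each other. The match nearest to the start is shown for 6 genes whose values in every library are given above, as examples of both motifs, in capitals, within 30 bases and in the direction of the gene; the ETS core reads CTTCCGG where it lies on the other strand.
MRPL51 (ETS, chr12:6493349-6493378, minus strand): ccggcaggcggaCCGGAAGcactgaggcgg
MRPL47 (ETS, chr3:179604660-179604689, minus strand): cggcttgagacgCCGGAAGtgacgctatcg
MRPL3 (ETS, chr3:131502986-131503015, minus strand): ttgtaaaacgcaCCGGAAGtgggtccggcg
MRPS34 (ETS, chr16:1773136-1773165, minus strand): ctcttccggtgaCTTCCGGccggaccgctg
MRPL30 (ETS, chr2:99181027-99181056, plus strand): gggtctgctgcgCTTCCGGgaagtggtcat
MRPL30 (NRF1, chr2:99181058-99181087, plus strand): tgatacccaggCGCCTGCGCtctctttcta
MRPL14 (NRF1, chr6:44127413-44127442, minus strand): ctgggcctggcGCGCAGGCGctaggaagag

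Median fold changes with and without these motifs were close to each other. The 22 tested genes with the ETS core had a median log2 fold change of -0.04 and the 42 without it a median of 0.01. For the NRF1 motif the medians were -0.02 with it (12 genes) and 0.00 without it (52 genes). In the mean comparison, 5 of the 22 with the ETS core were called lower (MRPL3, MRPL47, MRPL51, MRPS31 and MRPL58) and 0 higher. Over all genes tested, 23.2% were called lower and 22.3% higher, so the share that fell was near that of all genes. The share that rose, 0 of 22, was below that of all genes and below the 15.3% of the 72 genes. Whether this goes with the motif was not tested. Of the 5, MRPL51 and MRPL58 kept their call after GC and length correction. Genes with the ETS core were then called both ways. MRPS21, MRPL30, MRPS22, MRPS10, MRPL48 and MRPL27 were higher, and MRPL20, MRPS18A, MRPL43, MRPS34, MRPS26 and MRPL40 were lower as well. Of the 12 genes with the NRF1 motif, MRPL14 and MRPL17 were called higher and MRPL44 and MRPL57 lower in the mean comparison as fitted. A match is a description of the letters and not evidence of binding.

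Other genes of mitochondrial gene expression included larger changes than any ribosomal protein gene. Of 5 mitoribosomal proteins with other symbols, GADD45GIP1 rose by 0.13 (edgeR adjusted p = 0.00031), and DAP3, PTCD3, AURKAIP1 and CHCHD1 had log2 fold changes of 0.03 to 0.05 that did not pass. After GC and length correction GADD45GIP1 was at 0.01 (edgeR adjusted p = 0.78), while AURKAIP1 was called lower, at -0.16 (edgeR adjusted p = 2.8e-08), and PTCD3 and CHCHD1 higher, at 0.10 and 0.13 (edgeR adjusted p = 0.0020 and 0.011). Of 25 tested mitoribosome assembly factors, 7 were higher (22.3% of all genes were) and 4 lower (23.2%), with a median of -0.01. Among them ERAL1, a GTPase that chaperones the small subunit rRNA, averaged 147 ± 5.07 CPM with shCHD9_1 and 132 ± 1.05 CPM with shCHD9_2, against 119 ± 3.05 CPM in shGFP (SD, n = 3 each), a rise of 0.23 (edgeR adjusted p = 6.7e-09). MTERF4, a partner of the rRNA methyltransferase NSUN4, fell by 0.21 (edgeR adjusted p = 1.2e-07), and NGRN and C1QBP rose by 0.18 and 0.10 (edgeR adjusted p = 0.00028 and 0.00030). NGRN was called with shCHD9_1 (0.27, edgeR adjusted p = 2.6e-06) but not with shCHD9_2 (0.08, edgeR adjusted p = 0.17). Without shGFP replicate 1, 7 assembly factors in place of 11 were called.

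Of 17 mitochondrial translation factors, 3 were higher (22.3% of all genes were) and 7 lower (23.2%), with a median of -0.02. After GC and length correction 3 were higher (20.5% of all genes) and 2 lower (23.8%), and without shGFP replicate 3 the calls numbered 6 in place of 10. GFM1, the elongation factor that moves the ribosome along the mRNA, averaged 86.8 ± 1.48 CPM with shCHD9_1 and 99.7 ± 1.35 CPM with shCHD9_2, against 131 ± 2.76 CPM in shGFP (SD, n = 3 each). Its fall of 0.49 (SE 0.03, edgeR adjusted p = 5.5e-19) exceeded that of every ribosomal protein gene and was 0.39 after GC and length correction. MTRFR, a rescue factor for stalled ribosomes, moved the other way, with 51.5 ± 0.297 CPM and 48.4 ± 2.11 CPM with the CHD9 hairpins, against 36.2 ± 2.58 CPM in shGFP (SD, n = 3 each), a rise of 0.46 (SE 0.04, edgeR adjusted p = 9.3e-12). The ribosome recycling factor MRRF rose by 0.23 (edgeR adjusted p = 1.7e-06), and the elongation factor TUFM by 0.10 (edgeR adjusted p = 0.00049; 0.02 after correction).

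Of 18 tested genes of mitochondrial transcription and RNA processing, 5 were higher (22.3% of all genes were) and 4 lower (23.2%), with a median of 0.04. TRMT10C, a subunit of the RNase P that cuts mitochondrial transcripts, averaged 46.0 ± 0.644 CPM with shCHD9_1 and 62.6 ± 3.75 CPM with shCHD9_2, against 76.0 ± 3.24 CPM in shGFP (SD, n = 3 each), a fall of 0.50 (SE 0.04, edgeR adjusted p = 4.4e-15) that was 0.32 after correction. The helicase gene TWNK rose by 0.27 (edgeR adjusted p = 3e-08), and TBRG4 and the RNA polymerase gene POLRMT rose by 0.13 and 0.15 (edgeR adjusted p = 1.4e-05 and 1.7e-05), with TBRG4 at 0.06 and POLRMT at -0.05 after correction. Of 10 tested regulators of mitochondrial biogenesis, 5 were higher (22.3% of all genes were) and 3 lower (23.2%), with a median of 0.07. After GC and length correction 4 were higher (20.5% of all genes) and 0 lower (23.8%), and without shGFP replicate 3 the calls numbered 4 in place of 8. MYC rose by 0.32 and ESRRA by 0.27 (edgeR adjusted p = 1.8e-16 and 1.9e-13), PPARGC1B rose by 0.21 (ESRRA and PPARGC1B were at 0.12 and 0.15 after correction), and GABPA, the DNA-binding subunit of GABP, fell by 0.22 (edgeR adjusted p = 4.5e-05; -0.06 and not called after correction). PPARGC1B was called with shCHD9_2 (0.35, edgeR adjusted p = 8e-07) but not with shCHD9_1 (0.07, edgeR adjusted p = 0.28). TFAM belongs to both of the last lists.

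**Figure D5:**
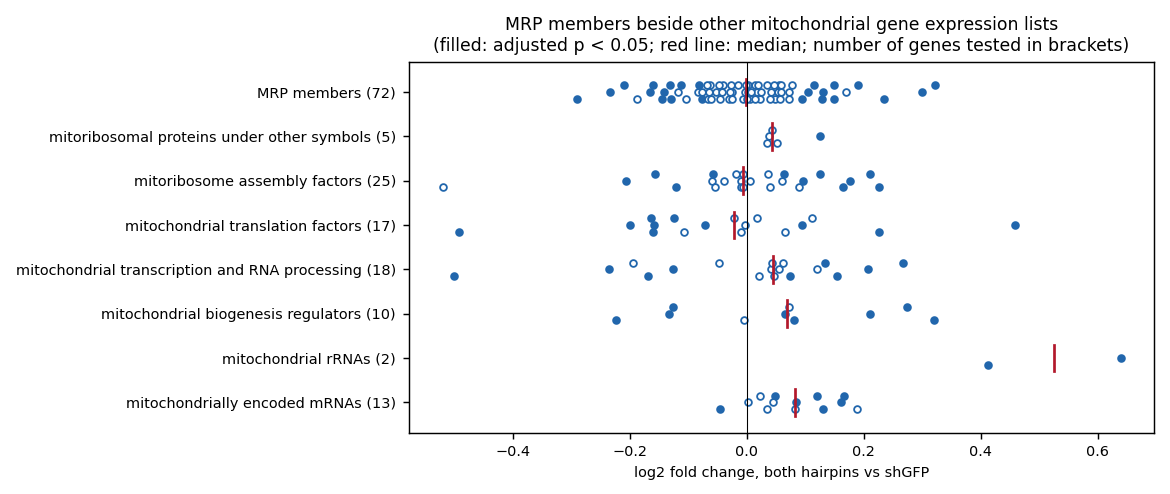
log2 fold change of both hairpins against shGFP for each tested gene of the mitochondrial ribosomal protein family (MRP) and of 7 other lists, with the number of genes in brackets; filled points had an adjusted p under 0.05 and the red line is the median. Genes of the MRP family lie between -0.29 (MRPS36, not a ribosomal protein gene) and 0.32, while GFM1 and TRMT10C lie near -0.50 and MTRFR at 0.46.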

How the data were processed

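Polyadenylated RNA of 9 libraries of 22Rv1 cells was sequenced with a directional kit, per the labels' protocols. The submitters' processing notes name Trim Galore, STAR, hg38 and DESeq2; which program counted reads, with which strand setting and on which annotation release, is not given in the sources used here. What the authors deposited are counts, raw whole numbers for every gene, with each of the libraries in a column of its own. Groups and replicate numbers come from the titles. Since strand is unknown, reads of overlapping genes cannot be told apart. Symbols came from a table of gene names (60370 of 67071 identifiers) and from GENCODE 29 (58541), which also gave coordinates on GRCh38, exonic length and GC content.

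The filterByExpr filter of edgeR 4.0.16 (minimum count 10) left 16855 genes, which were tested in R 4.3.3 with the quasi-likelihood test after TMM scaling, on 1 fit of all 9 libraries with 3 groups. The contrasts set shCHD9_1, shCHD9_2 and the mean of the pair against shGFP, and shCHD9_1 against shCHD9_2. A call is a Benjamini-Hochberg adjusted p under 0.05. CPM are counts over TMM-scaled library totals. The common coefficient of variation was 2.74%. Libraries of 1 group differed by more than counting noise (chi-square per degree of freedom 1.72 to 2.86). Floors for a count of 0 cover counting error only. The fit was tested on simulated data.

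The members and lists were chosen with earlier results of these data known. Genes named with every library are those called alike in the mean and with each hairpin (up to 10 each way), the 4 with the largest called difference between hairpins, and the 3 most and 3 least abundant; of each other list, up to 4 with the smallest p are named. MRPS31 and further called members were named beyond this to account for them, after their values were seen. Alternatives were DESeq2 size factors, the Wald test of DESeq2 1.42.0, limma 3.58.1 with voom weights, no low-count filter, fits on fewer groups, the replicate number as a block, a correction for GC and exonic length (splines with 5 degrees of freedom per library, for 97.8% of tested genes), block and correction together, and leaving out each library.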

Additional observations from a re-analysis of the deposited data

Results flagged for a closer look

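For 19 genes the effect of shCHD9_1 differed from that of shCHD9_2, by a test of the difference itself (quasi-likelihood test of edgeR, with p adjusted by Benjamini-Hochberg over all genes). In log2, shCHD9_1 minus shCHD9_2, the differences were negative for 12 genes. They were -0.27 for MRPS36, -0.22 for MRPL35, -0.17 for MRPL47, -0.15 for MRPL21, -0.14 for MRPS11, -0.14 for MRPS5, -0.14 for MRPS30 and -0.13 for MRPS34. They were -0.10 for MRPL19 and -0.08 for each of MRPS35, MRPL3 and MRPS25. The positive differences were 0.36 for MRPL30, 0.14 for MRPL43, 0.14 for MRPL44, 0.12 for MRPL49, 0.10 for MRPL13, 0.10 for MRPS26 and 0.09 for MRPS27. CHD9 itself was lower with shCHD9_1 than with shCHD9_2 by -0.28 (edgeR adjusted p = 0.0024), and the part of the depth of knockdown in these differences was not tested.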

How the results depend on the processing

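With the 6 CHD9 hairpin libraries as a single group, 13 genes were called in the mean comparison, 5 of them lower, and among the lists 4 assembly factors, 5 translation factors, 5 transcription genes, 3 biogenesis regulators and 3 mitochondrial mRNAs. After GC and length correction, 40 genes were called, 25 higher, and with the replicate block added 41, 25 higher. With shCHD9_1 both corrected fits called 39 genes, 24 higher, and between the hairpins they called 13 higher. Left-out libraries gave 12 to 19 genes called between the hairpins, with 3 to 7 higher. The count was 12 without shCHD9_1 replicate 1 and without shCHD9_2 replicate 2. Called values that turned after correction were, in the mean comparison, MRPS2 0.00, MRPL4 -0.06, MRPL47 0.05, MRPL3 0.04 and MRPL1 0.03. Values not called before that turned and became calls were MRPL35 0.12, MRPL19 0.10, MRPL32 0.13, MRPS10 0.14 and MRPL22 0.13. MRPS34 -0.11, MRPL36 -0.15, MRPL21 -0.11 and MRPS26 -0.10 turned the other way and became calls. With shCHD9_1 the called values that turned were MRPS2 -0.01, MRPL4 -0.13, MRPL13 0.12, MRPL39 0.04, MRPL35 0.07, MRPL47 0.06, MRPL3 0.04, MRPL19 0.11 and MRPS26 -0.07. With shCHD9_2 it was MRPS34 -0.03, and between the hairpins MRPL47 0.01, MRPL3 0.00, MRPL19 0.02, MRPS30 0.01 and MRPS35 0.04. Of the genes called without correction, the same ones turned with the block added. The cause was not tested. Same-numbered libraries did not deviate together (correlations of -0.02 to 0.04), and with the replicate block 23, 25, 22 and 18 genes were called for the mean, shCHD9_1, shCHD9_2 and between hairpins, with MRPL19 lost between the hairpins and MRPL1 and MRPS33 gained with shCHD9_1. Among the 72 genes, DESeq2 size factors added the shCHD9_1 call of MRPL1, and voom with limma neither added nor lost a call. At this depth the median SE of 0.04 limits what was detectable, and the 3 genes of lowest level had SEs of 0.13 to 0.27.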

Other observations

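The RNA that these proteins assemble on moved more than their own mRNA. MT-RNR2, the mitochondrial large subunit rRNA, averaged 5430 ± 45.8 CPM with shCHD9_1 and 4860 ± 139 CPM with shCHD9_2, against 3300 ± 55.2 CPM in shGFP (SD, n = 3 each). It rose by 0.64 on the log2 scale (edgeR adjusted p = 4.8e-31). MT-RNR1, the small subunit rRNA, averaged 523 ± 28.2 and 486 ± 12.8 CPM with the CHD9 hairpins, against 378 ± 23.1 CPM in shGFP (SD, n = 3 each), a rise of 0.41 (edgeR adjusted p = 1.5e-16). Libraries were made from polyadenylated RNA, so these are levels of the rRNA captured and not of all rRNA, and nuclear copies of mitochondrial DNA share sequence with both genes.

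Of the 13 mitochondrially encoded mRNAs, which the mitochondrial ribosome translates, 6 were higher (22.3% of all genes were) and 1 lower (23.2%), with a median of 0.08. After GC and length correction 10 were higher (20.5% of all genes) and 0 lower (23.8%), and without shGFP replicate 1 the calls numbered 4 in place of 7. MT-ND5 and MT-ND2, subunits of complex I, rose by 0.17 and 0.16 (edgeR adjusted p = 9.9e-11 and 2.2e-09; 0.23 and 0.26 after correction), and MT-CO3 of complex IV rose by 0.13 (edgeR adjusted p = 9.7e-09). MT-CO1 of the same complex was the mRNA called lower, with a fall of 0.05 (edgeR adjusted p = 0.0099). Its value was -0.01 with shCHD9_1 (edgeR adjusted p = 0.75) and -0.09 with shCHD9_2 (edgeR adjusted p = 0.00011), and -0.01 in the mean after correction (edgeR adjusted p = 0.59), with 0.06 for shCHD9_1 and -0.08 for shCHD9_2.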
